A study of Mus musculus with 10 samples.

Results

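The genomic stretches around 4 genes of the AP-1 family, Fos, Jun, Junb and Fosl2, held 68 of the 129028 DNase I hypersensitive (DHS) sites called in 3T3-L1 cells that had been stimulated for 4 h to become fat cells. A site was counted where it overlapped by at least 1 bp a window that reached about 100 kb to each side of the gene on the mouse mm9 build. The windows were chr12:86715000-86920000 for Fos, chr4:94615000-94820000 for Jun, chr8:87400000-87605000 for Junb and chr5:32338000-32560000 for Fosl2. They held 17, 12, 21 and 18 sites in that order. The sites contained 676 of 329076 footprints, short stretches with few DNase I cuts inside a DHS site, and 668 of the 676 lay inside the windows themselves. Taking 100 kb off each end of a window leaves a middle piece, here called the gene part, that holds the gene only roughly, since gene positions on mm9 were not used here. The gene part was 5 kb long for Fos, Jun and Junb and 22 kb for Fosl2.

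The DNase group consisted of 2 samples, both further sequencing of 1 library of 3T3-L1 cells, a clonal mouse preadipocyte line, with no genetic change given in the labels. The cells had been kept for 4 h in 1 µM dexamethasone (a glucocorticoid), 0.5 mM 3-isobutyl-1-methylxanthine (which raises cyclic AMP), 1 µg/mL insulin and 10% fetal calf serum. Sites and footprints were called once, on the pooled reads, and the depth behind each call is unknown. Every value below therefore describes 1 library without replicates, no test between samples could be made, and no unstimulated DNase sample is included, so nothing below is a change over time.

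AP-1 is a dimer of basic leucine zipper proteins of the Fos and Jun families. Jun proteins pair with each other or with Fos proteins, whereas Fos proteins need a Jun partner, and the dimers bind the site TGANTCA. Fos, Jun and Junb are immediate early genes, switched on within minutes by serum and, for Fos and Junb in particular, by cyclic AMP. In fibroblasts Fos induction is brief, while Fosl2, which encodes Fra-2, is usually expressed later and for longer. The study asks how transcription factors gather at shared open sites early in adipogenesis, and AP-1 factors are among those that bind such sites in preadipocytes.

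The annotated promoters of the 4 genes are shown first, since DHS sites with footprints reached all 4 gene parts. The sequences are RefSeq promoters on GRCm38.p6, a later build than that of the sites, and run from 250 bases before the annotated start of transcription to 30 bases after it, 5′ to 3′ along the gene. They lie at chr12:85473640-85473919 on the plus strand (Fos), chr4:95052193-95052472 on the minus strand (Jun), chr8:84978719-84978998 on the minus strand (Junb) and chr5:32136222-32136501 on the plus strand (Fosl2). Capitals mark every match to the motifs named after them.
Fos: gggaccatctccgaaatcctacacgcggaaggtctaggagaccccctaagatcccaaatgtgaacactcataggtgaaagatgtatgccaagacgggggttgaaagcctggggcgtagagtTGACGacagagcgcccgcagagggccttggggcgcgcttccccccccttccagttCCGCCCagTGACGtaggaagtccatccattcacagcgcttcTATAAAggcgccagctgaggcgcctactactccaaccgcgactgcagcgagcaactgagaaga
Jun: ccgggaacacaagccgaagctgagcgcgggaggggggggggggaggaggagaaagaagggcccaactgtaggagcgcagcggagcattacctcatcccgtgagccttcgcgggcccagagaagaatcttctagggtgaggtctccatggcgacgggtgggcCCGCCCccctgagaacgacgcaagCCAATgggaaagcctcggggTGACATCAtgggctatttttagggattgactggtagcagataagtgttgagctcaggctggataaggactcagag
Junb: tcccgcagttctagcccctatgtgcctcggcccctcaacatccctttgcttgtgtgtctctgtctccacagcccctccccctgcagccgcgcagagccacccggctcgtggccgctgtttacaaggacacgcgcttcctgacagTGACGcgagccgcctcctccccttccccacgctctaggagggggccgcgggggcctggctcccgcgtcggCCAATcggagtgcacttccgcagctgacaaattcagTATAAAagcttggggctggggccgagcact
Fosl2: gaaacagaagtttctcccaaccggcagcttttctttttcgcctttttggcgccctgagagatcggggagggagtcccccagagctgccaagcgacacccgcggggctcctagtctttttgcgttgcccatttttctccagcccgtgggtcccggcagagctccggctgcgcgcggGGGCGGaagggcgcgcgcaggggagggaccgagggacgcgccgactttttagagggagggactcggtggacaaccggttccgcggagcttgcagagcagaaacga

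The motifs searched on both strands, in the whole 300 bases of each table entry, were the cyclic AMP response element (CRE) TGACGTCA, its core TGACG, the AP-1 site TGANTCA, the C/EBP site TTGCNNAA, the glucocorticoid receptor core AGAACA, the Stat site TTCNNNGAA, the CCAAT box, the Sp1 site GGGCGG, the TATA box TATAAA and the CArG box of serum response factor. TGACNTCA, which includes the CRE, was added after the promoters were read. Positions are counted from the start of transcription, the base before it being -1. The Fos promoter held the CRE core at -129 to -125 and again at -66 to -62, the Sp1 site at -74 to -69 and TATAAA at -33 to -28. In the Jun promoter TGACATCA lay at -45 to -38, CCAAT at -65 to -61 and the Sp1 site at -89 to -84. The Junb promoter had the CRE core at -106 to -102, CCAAT at -36 to -32 and TATAAA at 1 to 6. That TATAAA match begins at the annotated start and not before it, as the match in the Fos promoter does. The Fosl2 promoter, with 32 CpG pairs the richest of the 4 in CpG, held the Sp1 site at -75 to -70 and no other match.

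None of the 4 promoters held the full CRE, the AP-1 site, the C/EBP site, the glucocorticoid receptor core, the Stat site or the CArG box in these 300 bases. Of 32841 RefSeq promoters of the same length, 1.79% held the full CRE, 7.81% the AP-1 site, 10.8% the C/EBP site, 19% the glucocorticoid receptor core, 8.3% the Stat site and 1.63% the CArG box. The CRE core was present in 2 of the 4 promoters and in 20.8% of all, TGACNTCA in 1 of the 4 and 8.83% of all, CCAAT in 2 of the 4 and 37.4%, the Sp1 site in 3 of the 4 and 35.7%, and TATAAA in 2 of the 4 and 13.6%. Matches to the CRE, its core and TGACNTCA can overlap each other. Of the other genes of the family, Fosb held the CRE core at -60 to -56 and 3 Sp1 sites, and Jund a TTGCNNAA match at -152 to -145. Fosl1 was not among the 6 of 7 family genes matched in the table. GC content was 58.7% for Fos, 60% for Jun, 65.3% for Junb and 64.7% for Fosl2, against a median of 52.7% over all promoters.

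At least 1 footprint was found in 63 of the 68 sites, 92.6% (95% Wilson interval 83.9 to 96.8%, counting error only), against 45.4% of all sites in the list. The shares were 15 of 17 sites for Fos, 11 of 12 for Jun, 20 of 21 for Junb and 17 of 18 for Fosl2. Several neighbouring stretches also had high shares. The share was 88.2% in the Fos window, against 91.3% in its lower and 88.2% in its upper neighbouring stretch of equal length. It was 95.2% in the Junb window, against 100% in the lower and 87.5% in the upper stretch. The Jun window had 91.7%, against 16.7% of 6 sites in the lower and 88.9% of 9 sites in the upper stretch. For Fosl2 the share was 94.4%, against 64.7% and 54.5% in the lower and the upper stretch. The 5 sites without a footprint were 252 to 643 bp wide. Sites with 10 or more footprints numbered 23 of 68 (33.8%), against 7.88% of the list. They were 6 in the Fos window, 4 in the Jun window, 9 in the Junb window and 4 in the Fosl2 window. A site of the windows held 9.94 ± 14.5 footprints on average (SD over 68 sites), against 2.55 ± 5.05 over the whole list (SD over 129028 sites). The large SD came with 4 sites of 34 to 96 footprints at the gene parts of Jun, Junb and Fosl2.

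**Figure D1:**
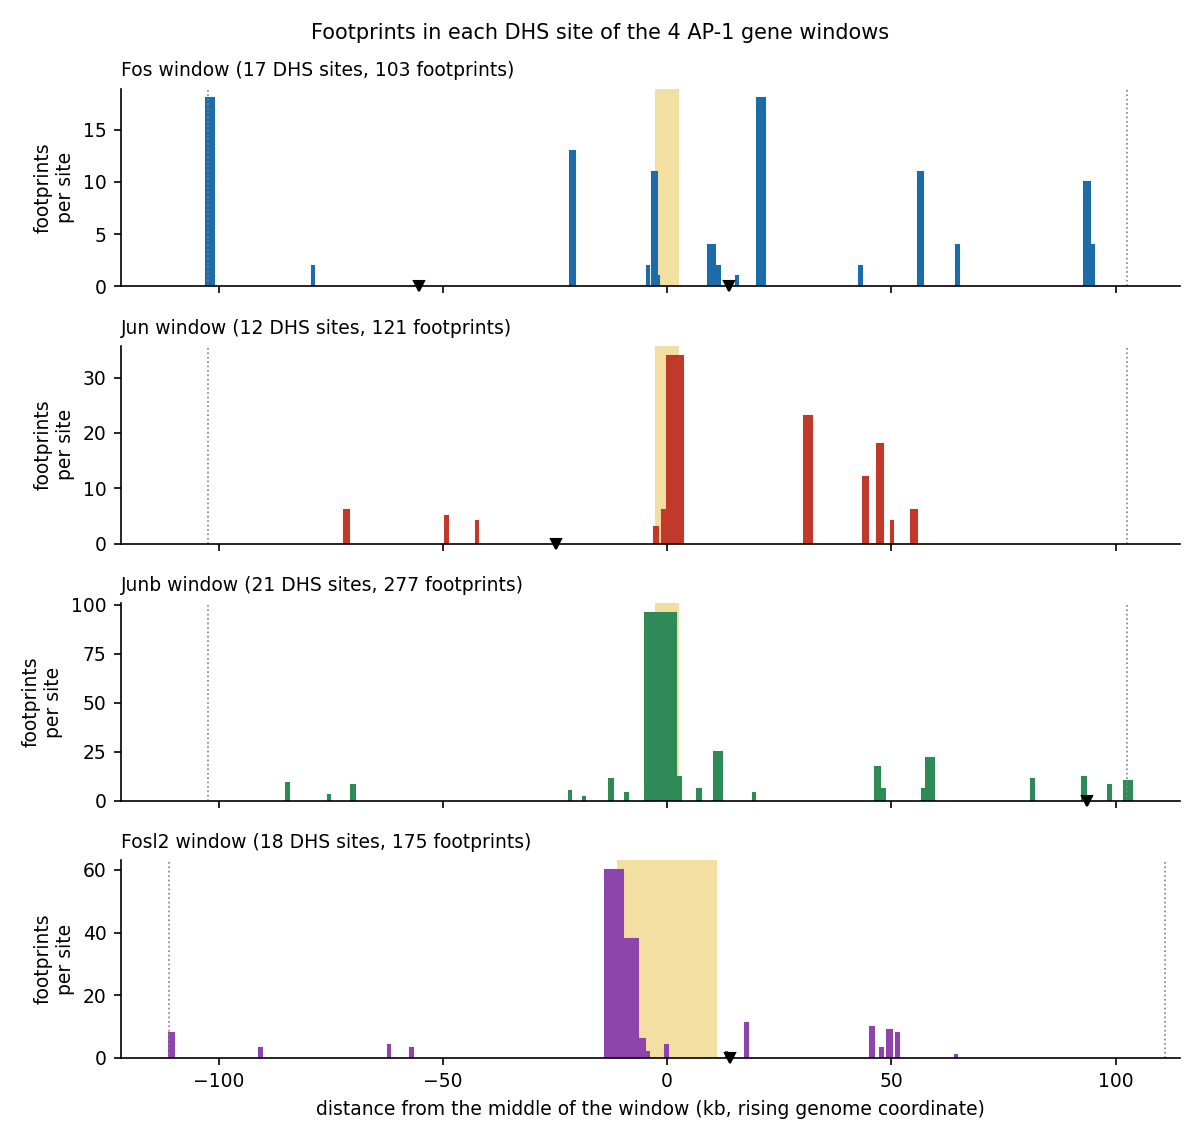
Footprints per DHS site (bar height, linear axis that differs between panels) along the Fos, Jun, Junb and Fosl2 windows, against distance from the middle of the window in kb. Bars are as wide as the sites (outlines add a little), triangles are sites with no footprint, shading is the gene part and dotted lines are the window edges. The tallest bar meets the gene part at Jun (34), Junb (96) and Fosl2 (60), while in the Fos window the tallest bars (18 each) lie away from it.

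The windows held many footprints more clearly than many sites. With the mm9 genome cut into consecutive bins of 205 kb, the 12342 bins with any DHS site had a median of 10 sites (interquartile range 7 to 13) and 12 footprints (1 to 39). The Junb window had more sites than 96.5% of these bins and more footprints than 99.9%. The Fosl2 window, scaled to the same length, had more sites than 89.2% and more footprints than 99.0%. The Fos window had more sites than 89.2% and more footprints than 95.6%. The Jun window, with 12 sites, had more sites than 63.0% of bins and more footprints than 97.3%. Bins were drawn without regard to genes, so this places the windows among all stretches of the genome and not among stretches around active genes.

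Per length of open DNA, the 4 windows carried 9.54 footprints per kb of DHS sequence, against 4.08 per kb over the list. The density was 6.94 per kb for Fos, 8.53 for Jun, 11.6 for Junb and 9.78 for Fosl2. On the same chromosomes outside the windows it was 3.46 per kb on chromosome 12 (Fos), 3.80 on chromosome 4 (Jun), 4.47 on chromosome 8 (Junb) and 4.49 on chromosome 5 (Fosl2). Footprints covered 18.6% of the DHS sequence of the windows and 8.19% of that of the list. The stretches of equal length directly below and above each window were intermediate. Their 109 sites carried 5.88 footprints per kb, and 79.8% held a footprint. At Fos the window's 6.94 per kb stood beside 5.45 and 5.76 per kb in its lower and upper neighbours, a smaller difference than at the other genes. The Jun window's 8.53 per kb stood beside 1.05 and 4.78 per kb, the lower neighbour having 6 sites and 3 footprints in all. That lower neighbour was below the 3.80 per kb of the rest of chromosome 4. Junb stood at 11.6 beside 7.59 and 8.01 per kb, and Fosl2 at 9.78 beside 5.68 and 4.50 per kb. The last value was close to the 4.49 per kb of the rest of chromosome 5.

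**Figure D2:**
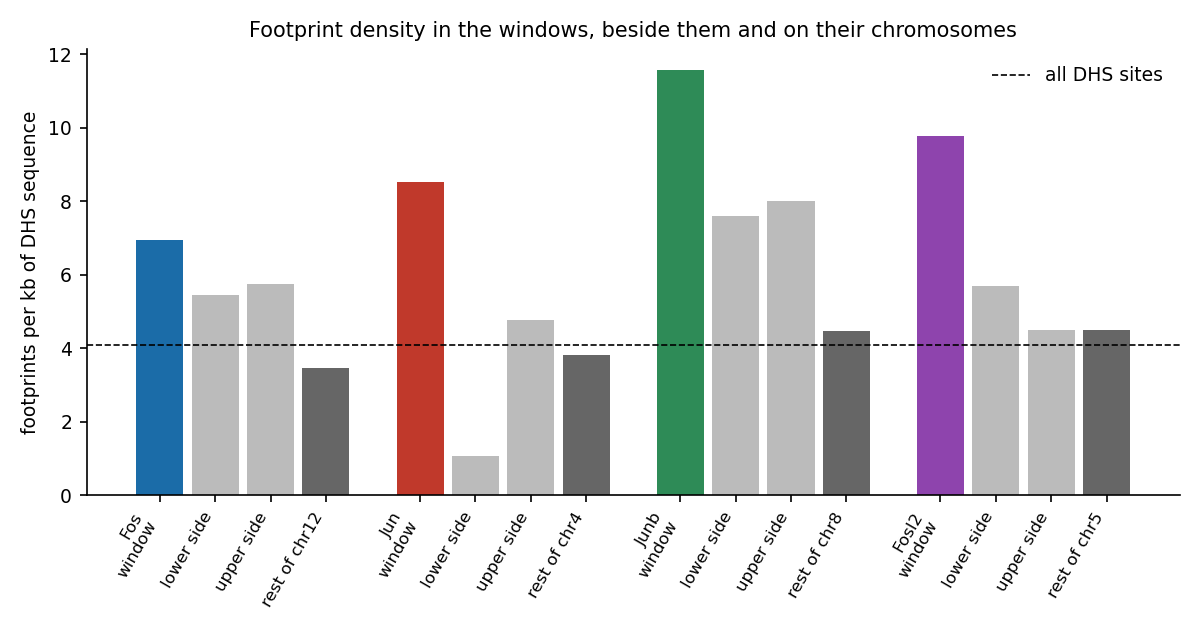
Footprints per kb of DHS sequence (linear axis from 0) in each window (coloured), in the stretches of equal length below and above it (light grey) and on the rest of its chromosome (dark grey), with the value of all DHS sites as a dashed line. Each coloured bar (6.94 to 11.6) is taller than the 3 grey bars beside it.

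Sites of the windows were also wide, and wide sites hold more footprints throughout the list. Their median width was 737 bp against 532 bp over the list, and 31 of the 68 (45.6%) belonged to the widest 20% of sites (793 bp or more). Within that widest class the window sites held 17.2 footprints on average and 10.6 per kb, against 8.88 and 7.27 per kb for all other sites of the class. Widths in this class run up to 13152 bp and were not matched between the 2 kinds of site. A footprint was present in 31 of the 31 window sites of this class (100%) and in 91.5% of others. Among sites of 600 to 793 bp, 17 of 18 window sites had a footprint (94.4%), against 73.0% of others. At 470 to 600 bp it was 8 of 9 (88.9%) against 39.2%, at 340 to 470 bp 5 of 6 (83.3%) against 16.3%, and at 251 to 340 bp 2 of 4 (50%) against 7.23%. The window sites thus carried footprints more often than the other sites of the same class in all 5 width classes, though the narrow classes rest on 4 to 9 window sites each.

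A number of footprints was predicted for each site from the mean of its width class, with 50 classes of equal number over the list. The 68 sites held 676 footprints where 378.0 were predicted, a ratio of 1.79 (95% Poisson interval 1.66 to 1.93, for counting error alone and as if footprints were independent). The widest class runs from 1794 to 13152 bp, so its mean is too low for the broadest sites. With the class density multiplied by each site's own width, the prediction was 446.6 and the ratio 1.51 (1.40 to 1.63). For the Junb site of 6823 bp this prediction was 57.2, still below the median of 74 in sites of like width. The ratio of 1.51 and that of the Junb window may therefore be too high. On that second basis the ratio was 1.79 (1.58 to 2.01) for Junb, 1.61 (1.38 to 1.87) for Fosl2, 1.26 (1.05 to 1.51) for Jun and 1.18 (0.960 to 1.43) for Fos. The Fos window therefore did not exceed its prediction beyond counting error, and its lower and upper neighbours had ratios of 1.25 and 1.19. The lower and upper neighbours had 1.19 (0.997 to 1.40) and 1.56 (1.16 to 2.07) beside Junb, 1.23 (0.952 to 1.57) and 0.876 (0.623 to 1.20) beside Fosl2, and 0.695 (0.143 to 2.03) and 0.908 (0.636 to 1.26) beside Jun. All 8 neighbours pooled had a ratio of 1.17 (1.07 to 1.27), so more footprints than predicted were also found next to the windows. More footprints than predicted from width were found in 54 of the 68 sites (79.4%), against 29.7% of the list, where most sites hold none. Among the widest 20% of sites, 24 of the 31 window sites exceeded class density times width, against 49.5% of that class in the list. Read depth is not known, and whether these sites had more cuts than others of their width was not tested.

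**Figure D3:**
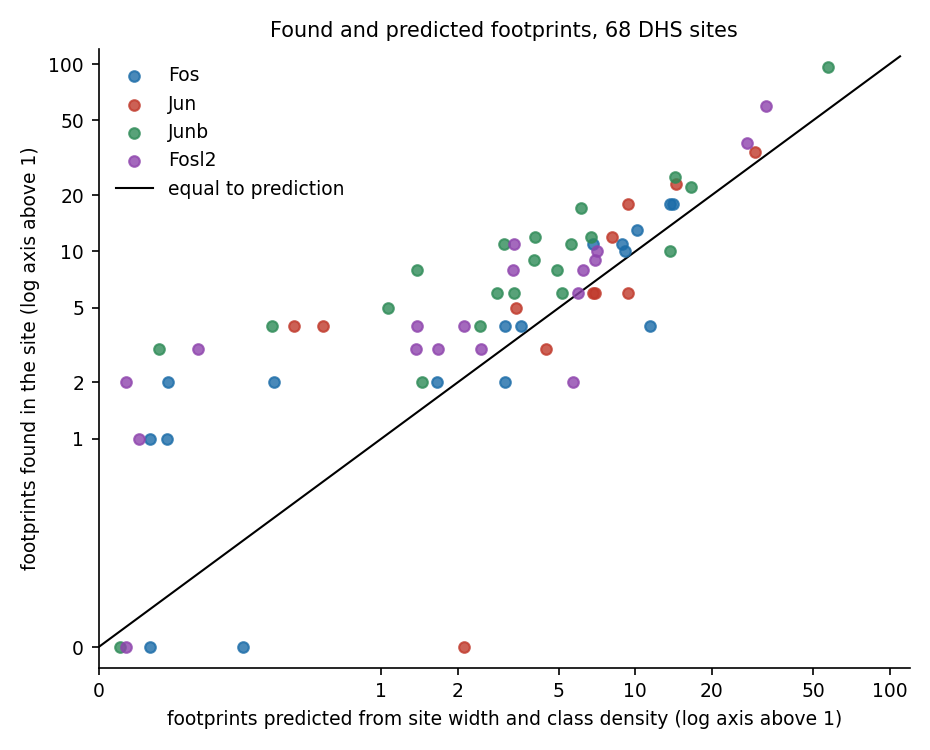
Footprints found in each of the 68 DHS sites (vertical) against the number predicted from the footprint density of the site's width class times its width (horizontal), both on axes that are linear up to 1 and logarithmic above, with 1 point per site coloured by window and a line where both are equal. Most points lie above the line (55 of 68), and the highest is the Junb site with 96 footprints. The share of all DHS sites above the line is not given here. Among the widest 20% of sites, 24 of 31 window sites lie above it, against 49.5% of that class in the list.

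The Fos window had no very broad site at the gene. Fos encodes the founding member of the Fos family. A pair of sites met the gene part, chr12:86814227-86815234 with 11 footprints in 1008 bp and, 55 bp further on, chr12:86815290-86815631 with 1 footprint in 342 bp. The other 7421 sites of the list within 10% of the first site's width had a median of 7 footprints, and 78.2% of them had fewer than 11. All 11 footprints of that site lay inside one stretch of 500 bp, and 10 were in its middle part. The gene part supplied 12 of the window's 103 footprints. The 3 richest sites lay elsewhere and held 49 footprints, 47.6% of the total. These were chr12:86837611-86839347, 17.6 kb above the gene part, with 18 footprints in 1737 bp, chr12:86714729-86716415, which crosses the lower window edge, with 18 in 1687 bp, and chr12:86795757-86797050, 18.0 kb below the gene part, with 13 in 1294 bp. The remaining 12 sites away from the gene part had 0 to 11 footprints. The 2 strongest footprints of the window, chr12:86838767-86838792 and chr12:86838701-86838729, both fell in the site 17.6 kb above the gene part, with deposited scores of -15.2 and -14.3. More negative scores were read as stronger and rank footprints only. The third, chr12:86796208-86796229, had a score of -11.1 and lay in the site 18.0 kb below. Thus the strongest footprints of the Fos window were in distal sites on both sides of the gene part. On GRCm38.p6 the nearest coding genes are Tmed10, a cargo receptor of the secretory pathway, on the lower side and Jdp2, a basic leucine zipper repressor that pairs with Jun, on the upper side.

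The Jun window had the fewest sites of the 4, 5.85 per 100 kb against 8.29 in the Fos window, although with a 50 kb flank both had 9.52 per 100 kb. Jun encodes a Jun protein that pairs with itself and with Fos proteins. Its gene part met 3 sites, chr4:94714627-94715452 with 3 footprints, chr4:94716382-94717384 with 6, and chr4:94717422-94720939 with 34 in 3518 bp. The last 2 of these are 37 bp apart. The broad site ranked 181 by width and 239 by footprints in the whole list, and 60.3% of the other 146 sites of like width had fewer than 34 footprints (median 30), so its number was ordinary for its width. Its scores were set against the whole list alone, not against sites of like width. The window's 3 strongest footprints, chr4:94719059-94719086, chr4:94718995-94719019 and chr4:94718900-94718914, had scores of -18.4, -17.6 and -14.3 and lay within 187 bp in this site. Scores below -10 were found for 9 of its 34 footprints and for 12 of the 121 footprints of the window (9.92%), against 3.09% of the list. Scores stronger than the median of the list were found for 47.9% of the window's footprints, against 50.1% of the list. A stretch of 522 bp without a footprint, chr4:94718225-94718746, separated the lowest footprint of the site from the rest. Above the gene part, 5 sites from 28.1 to 51.9 kb away held 63 footprints, more than the 43 of the gene part, whereas the 4 sites below held 15. The richest of the upper sites were chr4:94748113-94749886 with 23 footprints in 1774 bp and chr4:94764390-94765641 with 18 in 1252 bp. Among sites of like width, 84.4% had fewer footprints than the first of these and 92.0% fewer than the second. The remaining 7 sites away from the gene part had 0 to 12. The nearest coding genes on GRCm38.p6 are Mysm1, a histone deubiquitinase, on the lower side and Fggy, a carbohydrate kinase, on the upper side.

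The Junb window had the most footprints, and a single site held 96 of its 277. Junb encodes a Jun protein that can also restrain Jun. The site, chr8:87497626-87504448, was 6823 bp wide, covered most of the gene part, and ranked 14 by width and 13 by footprints among all sites. The other 13 sites within 10% of its width had a median of 74 footprints, and 9 of them had fewer than 96 (69.2%). It was followed after 255 bp by chr8:87504704-87505486, with 12 footprints in 783 bp, more than 98.9% of sites of like width. Along the broad site, the lowest, the middle and the highest parts of equal length held 27, 30 and 39 footprints. The densest 500 bp, chr8:87503592-87504091, held 19, and lay beyond the longest stretch between 2 footprints, chr8:87502878-87503298 (421 bp). The lower end of the site was free of footprints for 636 bp. The remaining members of the 3 richest sites were chr8:87513000-87514762, 8.0 kb above the gene part, with 25 footprints in 1763 bp, and chr8:87560130-87562110, 55.1 kb above it, with 22 in 1981 bp. The 17 other sites away from the gene part had 0 to 17, and 1 of them had none. The strongest footprints were not in the broad site. Both chr8:87490064-87490083, with a score of -18.2, and chr8:87489943-87489971, with -16.3, lay in chr8:87489597-87490486, a site of 890 bp with 11 footprints, 9.5 kb below the gene part. The third, chr8:87503812-87503839, with -14.0, was in the densest 500 bp of the broad site. This stretch of the genome is rich in genes. On GRCm38.p6 there are 17 other coding genes within 100 kb of Junb, against 1 for Fos, 1 for Jun and 2 for Fosl2, with Prdx2, a peroxiredoxin, on the lower side and Hook2, a microtubule linker, on the upper side. Which sites are promoters of these genes was not tested.

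In the Fosl2 window the footprints gathered in a row of sites at one end of the gene part. Fosl2 encodes Fra-2, a Fos protein without the strong activation domain of Fos. The gene part met 6 sites with 113 of the 175 footprints. They were chr5:32435243-32439150 with 60 footprints in 3908 bp, chr5:32439216-32442491 with 38 in 3276 bp, chr5:32442498-32442953 with 3, chr5:32443032-32443961 with 6, chr5:32444140-32445044 with 2 and chr5:32448543-32449185 with 4. The first 4 follow each other with gaps of 65, 6 and 78 bp, so that open chromatin was nearly continuous over this end of the gene part, which is the end where the gene starts if its plus-strand orientation on GRCm38.p6 holds on mm9. No site was called in the opposite end of the gene part, above chr5:32449185. The first site ranked 34 by footprints in the list, and 93.4% of the other 106 sites of like width had fewer than its 60 (median 33). The second had more than 76.2% of sites of like width. In the first site the strongest footprints were chr5:32438206-32438235, chr5:32438318-32438346 and chr5:32437616-32437645, with scores of -18.1, -12.3 and -10.2. Its footprints fell into a lower and a higher group, with 1 footprint between them. The longest gap between 2 footprints was chr5:32436662-32437059 (398 bp). The third richest site, chr5:32466306-32467024, 6.3 kb above the gene part, held 11 footprints in 719 bp, more than 99.4% of sites of like width. The remaining 11 sites away from the gene part had 0 to 10. Babam2, a subunit of deubiquitinase complexes, is the nearest coding gene on the lower side and Plb1, a phospholipase, on the upper side.

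**Figure D4:**
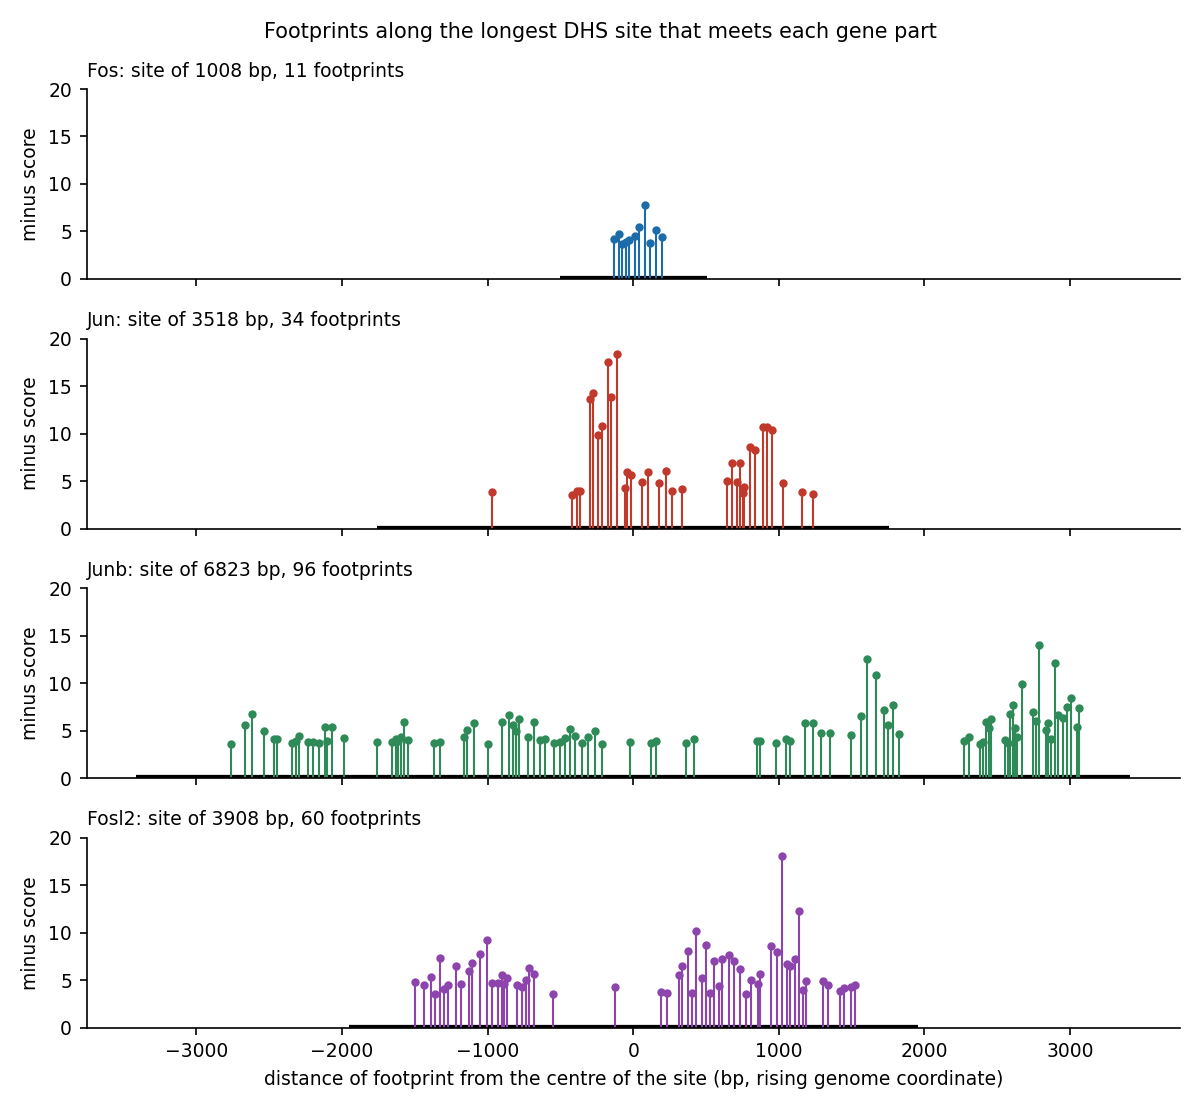
Each footprint (line and dot) of the longest DHS site that meets the gene part of Fos, Jun, Junb and Fosl2, by distance of its centre from the centre of the site in bp and by minus its deposited score, whose scale is not known. The black bar is the site. The highest dots (about 18) are in the Jun and Fosl2 sites, and footprint-free stretches of 398 to 522 bp interrupt the Jun, Junb and Fosl2 sites.

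Over the 4 windows, 286 of 676 footprints (42.3%) fell within 5 kb of a gene part, which makes up 9.20% of the window length. The share was 65.7% for Fosl2, 41.2% for Junb, 35.5% for Jun and 13.6% for Fos. The 13 sites that met a gene part had 276 footprints, 1.51 times class density times width, and the 55 sites that did not had 400, or 1.52 times. Against the mean of the width class alone, the ratios were 2.36 and 1.53. By window, on the basis of class density times width, the order of the 2 kinds of site was not the same throughout. For Fos the ratio was 1.71 (0.883 to 2.99) in the gene part sites and 1.13 (0.910 to 1.39) in the others. For Jun it was 1.06 (0.764 to 1.42) in the gene part sites and 1.41 (1.12 to 1.77) in the others. The Junb window had 1.77 (1.45 to 2.13) and 1.81 (1.54 to 2.10), and the Fosl2 window 1.52 (1.25 to 1.83) and 1.82 (1.40 to 2.33), in the same order. The 1.77, and the 1.51 of the 13 sites together, may be too high, since the prediction for the Junb site of 6823 bp was below the median of sites of like width. The 2 intervals overlapped in each window. All 13 of the first and 50 of the 55 held a footprint.

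Joining sites 12.5 kb or less apart gave the group of sites to which each gene part belonged. The Junb group, chr8:87480550-87522171, had 9 sites and 165 footprints in 41.6 kb and ranked 26 by footprints among 57598 groups. The Fosl2 group, chr5:32435243-32449185, had 6 sites and 113 footprints in 13.9 kb and ranked 72. Its sites made up 72.6% of its length, against 32.3% in the Junb group. The Jun group, chr4:94714627-94720939, consisted of the 3 gene part sites alone, with 43 footprints in 6.3 kb and rank 962. The Fos group, chr12:86812947-86839347, had 8 sites and 39 footprints in 26.4 kb and rank 1216, and shrank to 3 sites when sites were joined at 5000 bp. The Junb group then had 6 sites in 25.2 kb, which made up 46.8% of its length. Joined at 20000 bp, the Fosl2 group had 9 sites in 31.8 kb, which made up 35.8% of its length. The Jun group was the same at both distances.

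The footprints of the windows had a median width of 19 bp, against 21 bp in the list, and 7.54% had the largest width of 30 bp, against 11.6% of all footprints. That share was 6.29% for Fosl2, 7.22% for Junb, 8.74% for Fos and 9.09% for Jun, below the list in each window. The median score was -4.50 against -4.38, and 29 of 676 (4.29%) had a score below -10, against 3.09%. By window the median score was -4.68 for Junb, -4.49 for Fosl2, -4.30 for Fos and -4.29 for Jun. Of 613 gaps between neighbouring footprints of a site, 23.2% were under 10 bp, against 24.4% in the list. That share ran from 13.6% in the Fos window and 19.1% in the Jun window to 22.2% in the Fosl2 window and 28.8% in the Junb window. A score of -Inf was given to 496 of the 329076 footprints of the list and to none of the 676 of the windows. Such scores are so rare in the list that their absence here says little.

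The window edges cut through sites in 3 places. The lowest Fos site (18 footprints) and the lowest Fosl2 site, chr5:32337955-32338922 (8 footprints), cross the lower edge, and the highest Junb site, chr8:87604407-87606090 (10 footprints), crosses the upper edge. The sites next to the edges on the inside were chr12:86912011-86912755 with 4 footprints at Fos, chr4:94645470-94646496 and chr4:94771919-94773176 with 6 each at Jun, chr8:87417444-87418218 with 9 at Junb and chr5:32513290-32513621 with 1 at Fosl2. Just outside, the nearest sites below and above had 2 and 9 footprints at Fos, 0 and 2 at Jun, 11 and 8 at Junb, and 0 and 0 at Fosl2. The nearest of these lay 1.8 kb from the Junb window and 3.5 kb from the Jun window.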

How the data were processed

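DNase I hypersensitive (DHS) sites and footprints of 3T3-L1 cells at 4 h were used as deposited. Per the labels, short DNase I fragments of nuclear DNA were taken from a sucrose gradient, and both DNase samples are further sequencing of 1 library, which the authors pooled with its earlier reads before calling. The build is mm9 and HOMER is named, per the submitters' processing notes. Tool versions, footprint caller and depth: not given in the sources used here. Only positions are in the DHS list. The footprint list gives positions and a column headed p-value per the file headers. Its deposited values, all negative with some at -Inf, were taken as a score of unknown scale and served for ranking alone. Widths ran from 8 to 30 bp.

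Footprints were assigned to sites at 1 bp overlap, and the numbers were the same with bedtools 2.31.1 for 129028 of 129028 sites. Sites were placed in 205 kb bins by their centres. Positions are 1-based, the BED form being assumed. The ratio to prediction was tested on simulated data. These were independent Poisson counts drawn from the same width-class means, so the test checked the calculation and not the prediction itself. Alternatives were a 50 kb flank, sites fully inside a window, the wider 50% of sites, the stronger 50% of footprints, footprints fully inside sites or merged at 2 bp or less, 20 width classes, each window left out, a gene part widened by 10 kb, and joining at 5000 and 20000 bp. Prediction by class density times width, prediction from the window's own chromosome, leaving out gene part sites, footprints inside the window alone and the motif TGACNTCA were added after the data were seen. The members and lists were chosen with earlier results of these data known. Named for each window are the sites meeting the gene part, the 3 sites with the most footprints, the widest site, the 3 strongest footprints and the sites at the edges. Other regions were named after their values were seen. Protein sequences, cell type markers and the 8 RNA samples were not analysed here, nor were genome letters of mm9. Python 3.11.15, numpy 2.4.6, pandas 2.3.3, scipy 1.17.1 and matplotlib 3.10.9 were used.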

Additional observations from a re-analysis of the deposited data

How the results depend on the processing

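No paired analysis was possible because the DNase reads of 1 library were pooled before calling, and the RNA samples numbered by experiment in the labels were left out. Of 42 values over the 4 windows or of joined groups under alternatives, 30 stayed within the counting interval of the reported value (within 1.5 times for numbers of sites) and 12 moved outside it. A footprint was present in 98.1% of sites among the wider 50% (75.2% of the list) and in 72.1% with the stronger 50% of footprints (27.8% of the list). Footprints per kb were 5.01 with the stronger 50% (2.04 over the list), 8.50 without the Junb window and 8.61 without the gene part sites. The ratio to prediction was 1.98 with a 50 kb flank, 1.96 without the Fos window, 1.54 without the Junb window, 1.53 without the gene part sites and 1.51 with prediction by class density times width, and it stayed above 1 throughout. The share of footprints near the gene part was 50.3% with that part widened by 10 kb. The Fos group of joined sites had 3 sites at 5000 bp. Of 88 single-window values, 68 stayed, 19 moved and 1 reversed. Sites per 100 kb were 9.52 in the Jun window with a 50 kb flank, against 5.85, and 5.37 in the Fos window with the wider 50%, against 8.29. With the stronger 50% of footprints, a footprint was found in 52.9% of sites for Fos and 61.1% for Fosl2. The ratio for Fos was 0.997 with the stronger 50% of footprints, and its reported interval already included 1. The cause was not tested. Depth is unknown for both lists, so fewer cuts cannot be told apart from less binding at any site.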

Other observations

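A few sites of the windows were separated by very short stretches without a call. Of 64 distances between neighbouring sites within a window, 6 (9.38%) were under 100 bp, against 2.28% of 129007 in the list. They were 3 in the Fosl2 window and 1 in each of the other 3, and the shortest, 6 bp, separated the second and the third site of the Fosl2 gene part. Median distances between neighbouring sites were 3162 bp for Fosl2, 4126 bp for Junb, 6226 bp for Jun and 9243 bp for Fos, against 10269 bp in the list. Distances that leave a window were not counted, whereas the list was not cut in this way. Both comparisons therefore favour short distances in the windows, and whether sites lie closer there than elsewhere was not tested. The longest distance between 2 neighbouring sites of a window was 47.7 kb in the Junb window, chr8:87432876-87480549. It was followed by 42.9 kb in the Fosl2 window, directly below the first site of its gene part. Stretches between the last site and the window edge were not ranked, though at the upper edge they reached 46.8 kb for Jun and 46.4 kb for Fosl2.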
